A study of Rattus norvegicus with 6 samples.

Results

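The genes described here are the 59 genes of transforming growth factor beta (TGF-beta), bone morphogenetic protein (BMP) and activin signalling on an array of 14506 genes, or 0.407% of them. They were chosen by gene symbol: the Bmp, Bmpr, Gdf, Tgfb, Tgfbr, Inha, Inhb, Acvr, Smad and Ltbp families, together with Fst, Fstl3, Nog, Chrd, Grem1, Foxh1, Amh and Amhr2. Each had 1 probe set with that symbol alone. Bmp2k entered through its name but encodes a kinase outside the pathway. It is kept apart from the roles below, but counts over the 59 genes and over their promoters include it. The animals were 6 adult Sprague-Dawley rats. From each, RNA of the endosalpinx, the mucosa that lines the oviduct, was read on an array of its own. The 3 mated females had been caged with a fertile male on the evening of pro-estrus, and sperm or a vaginal plug was seen 30 min later. They stayed with the male and were killed early in estrus, 3 h after mating, and their labels record abundant semen in the uterus. The 3 unmated females were in the same phase of the cycle, were kept isolated and were killed at the same hour, and their labels record uterine edema. Company of a male, the handling that goes with it and mating itself cannot be told apart in this design. The comparison asks which RNAs of the lining differ between these states at that hour.

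Ligands of this family are secreted dimers that bring type I and type II receptor kinases together on the cell surface. TGF-beta and activin receptors mostly phosphorylate Smad2 and Smad3, BMP receptors mostly Smad1, Smad5 and Smad9, and either set joins Smad4 to act on genes in the nucleus. Secreted traps hold ligands away from receptors, and Smad6 and Smad7 feed back on the pathway. In the female tract these signals are known for duct development, for growth and matrix of epithelium and stroma, and, from the ovary, for follicle growth and ovulation.

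Values are log2 signals, so a difference of 1 is a doubling, and every difference is mated minus unmated. The test was limma's moderated test across all 14506 genes, with p-values adjusted by the Benjamini-Hochberg method. As a guide to background, a gene is called dim where its mean over the 6 arrays is at or below 7.13, the 95th percentile of 1256 odorant, pheromone and trace amine receptor genes. By that measure 43 of the 59 genes were above the receptor range and 16 were dim. Markers of epithelium (6 of 6 above the range), ciliated cells (5 of 6) and secretory cells (3 of 4) were present, as the tissue label states. Those of fibroblasts (5 of 6), smooth muscle (6 of 6), endothelium (3 of 5), macrophages (5 of 6) and mesothelium (2 of 2) were also present, while 0 of 6 neutrophil, 0 of 3 granulosa cell and 0 of 4 oocyte markers were above it. Median differences of these marker lists ranged between -0.12 for endothelium and 0.14 for granulosa cells. In bulk tissue, fewer cells of a type and less RNA per cell cannot be told apart. Mated replicate 1 stood apart on the first principal component (30.9% of the variance), at 12.9 against -11.0 and -10.9 for the other mated arrays, with unmated arrays between -2.89 and 8.25. Over the 59 genes, the counts at an unadjusted p under 0.05 and of groups that do not overlap are also given without it. Counts by role are given with all 6 arrays only.

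No gene of the pathway passed the adjusted threshold of 0.05, and 0 of all 14506 genes (0%) did. Adjusted p ran between 0.984 and 0.993 over the 59 genes. At an unadjusted p under 0.05, with no correction for the number of genes, 6 of the 59 (10.2%) were counted, beside 4.57% of all genes. The higher ones were Foxh1, Bmp2, Gdf2 and Inhbe, 4 of 59 genes beside 438 of all 14506 (3.02%). The lower ones were Bmpr1b and Ltbp4, 2 of 59 genes beside 225 of all 14506 (1.55%). Without mated replicate 1 the count was 10 (16.9%), beside 9.67% of all genes, and without unmated replicate 1 it was 2 (3.39%), beside 4.42%. The 4 higher genes were all dim, and the 2 lower ones were both above the receptor range.

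In 13 of the 59 genes (22.0%) all 3 mated values lay on one side of all 3 unmated values, beside 8.47% of all genes. Of the 59, 9 were higher in mated animals without overlap, beside 760 of all 14506 genes (5.24%), and 4 were lower, beside 469 (3.23%). The gap between the groups was small, between 0.01 and 0.26, and it was at most 0.03 in 7 of the 13. These shares lay nearer to each other under other scalings. After a second quantile normalization 9 genes (6 higher, 3 lower) were free of overlap, or 15.3%, beside 9.44% of all genes. After median centring there were 7 (5 higher, 2 lower), or 11.9%, beside 8.18% of all genes. After cyclic loess there were 9 (5 higher, 4 lower), or 15.3%, beside 9.71% of all genes. The genes without overlap under every scaling were 4: Amhr2, Bmpr1b, Foxh1 and Smad5. With 1 array left out, fewer values have to be free of overlap, and both counts grow: without mated replicate 1, 37.3% of the genes and 26.8% of all genes were free of overlap, and without unmated replicate 3, 39.0% and 19.9%.

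**Figure D1:**
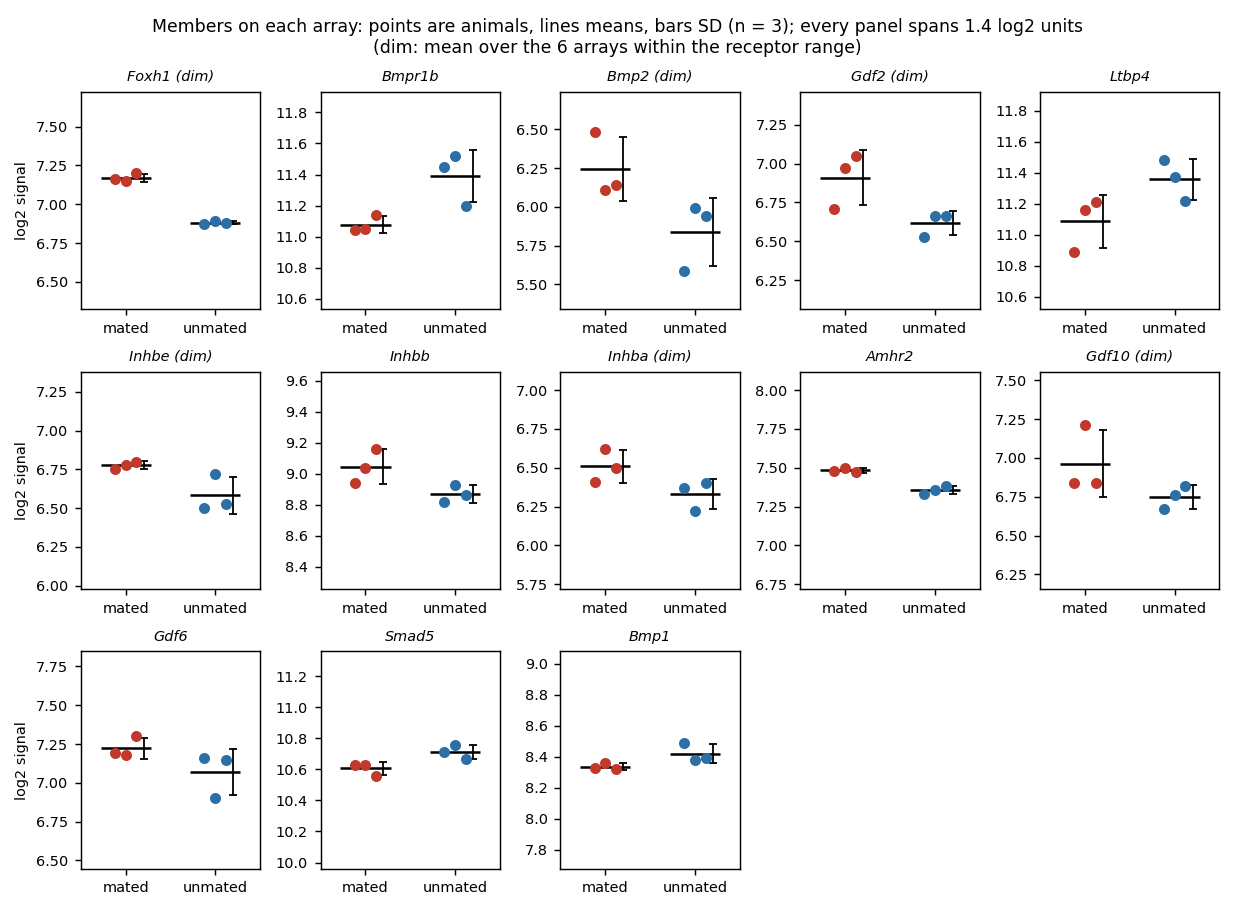
Log2 signal of the 13 genes whose groups did not overlap, with a point per animal, mated on the left and unmated on the right of each panel, a line for the mean and a bar for the SD (n = 3 each). All panels span the same number of log2 units, and the mated and unmated points are closest in Ltbp4, Inhbb and Inhba, where they are 0.01 apart, and farthest in Foxh1, where they are 0.26 apart.

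Before the values, 4 promoters are shown, from the RefSeq promoter table (assembly GRCr8): Ltbp4, the largest of the lower differences with an entry, Inhbb, the only beta subunit above the receptor range, and the neighbours Gdf10 and Gdf2. Each run gives the 250 bases before the annotated start, 5′ to 3′ in the direction of the gene. Capitals mark GGCGCC, a GC-rich element bound by Smads of the BMP branch. The window of Ltbp4 (chr1:91759808-91760057, minus strand, 70.4% G or C) and that of Gdf2 (chr16:9261429-9261678, plus strand, 49.6%) hold no such match. The window of Inhbb (chr13:33089374-33089623, minus strand, 86.8%) holds 2, and that of Gdf10 (chr16:9243262-9243511, plus strand, 76.0%) holds 1. Gdf10 and Gdf2 lie next to each other on chromosome 16 with 0 coding genes between them, and their windows differ by far in base composition.
Ltbp4: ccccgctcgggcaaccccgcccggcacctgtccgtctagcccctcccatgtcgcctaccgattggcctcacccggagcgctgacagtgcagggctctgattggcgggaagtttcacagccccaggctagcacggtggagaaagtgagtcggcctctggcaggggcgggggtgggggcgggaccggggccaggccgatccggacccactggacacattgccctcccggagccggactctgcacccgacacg
Inhbb: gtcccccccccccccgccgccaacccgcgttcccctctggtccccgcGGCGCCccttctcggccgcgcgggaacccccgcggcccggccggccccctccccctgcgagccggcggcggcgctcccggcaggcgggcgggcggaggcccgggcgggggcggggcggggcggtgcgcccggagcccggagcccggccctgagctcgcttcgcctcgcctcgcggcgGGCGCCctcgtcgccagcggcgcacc
Gdf10: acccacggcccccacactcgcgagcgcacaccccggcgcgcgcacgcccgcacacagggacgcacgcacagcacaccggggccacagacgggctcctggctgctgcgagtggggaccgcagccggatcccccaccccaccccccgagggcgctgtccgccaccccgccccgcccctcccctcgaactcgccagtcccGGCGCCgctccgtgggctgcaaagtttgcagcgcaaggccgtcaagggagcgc
Gdf2: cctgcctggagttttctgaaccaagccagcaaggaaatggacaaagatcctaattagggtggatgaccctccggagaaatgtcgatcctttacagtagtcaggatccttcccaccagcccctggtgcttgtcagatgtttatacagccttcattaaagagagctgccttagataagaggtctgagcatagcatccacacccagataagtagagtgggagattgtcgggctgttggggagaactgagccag

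Of the 59 genes, 48 matched an entry of the promoter table, and Acvr1, Acvrl1, Bmp1, Bmp2, Bmp7, Bmpr1b, Foxh1, Fst, Gdf3, Gdf6 and Smad6 are named only. Motifs were searched on both strands. GGCGCC, which reads the same on both, was found in 12 of the 48 windows (25%), beside 13.4% of the 11951 windows of genes on the array and 9.24% of all 27457 windows. The 12 were those of Acvr1b, Bmp2k, Chrd, Gdf10, Grem1, Inhbb, Nog, Smad2, Smad7, Smad9, Tgfbr1 and Tgfbr3, of which Inhbb and Gdf10 are among the 13 genes without overlap. The windows of the pathway were also richer in G and C, with a median of 63.6%, beside 57.2% for genes on the array and 52.0% for all windows. The Smad palindrome GTCTAGAC was in 0 of 48 windows and in 0.142% of those of genes on the array. The element AATNCACA, named for Foxh1, was in 0 of 48 and in 2.69%. A match of letters is a description of these windows, and no match says only that the letters are not in them.

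The ligands lay mostly on the higher side in mated animals: 19 of 25 had a difference above 0, with a median of 0.13, beside 53.3% of all genes above 0 and a median of 0.01. Of the 25, 13 were above the receptor range and the rest were dim. Of all dim genes 62.9% were above 0, with a median of 0.04. Among the 16 BMP and GDF ligands 12 were above 0 and the median was 0.09. Bmp2, a ligand best known for inducing bone and for uterine stroma at implantation, read 6.48, 6.11 and 6.14 on mated arrays, against 5.59, 5.99 and 5.94 on unmated arrays. The lowest mated value was 0.12 above the highest unmated one, mated replicate 1 was the highest and unmated replicate 1 the lowest. The difference was 0.40 (95% confidence interval 0.09 to 0.72, adjusted p = 0.984). It was 0.29 without mated replicate 1 and 0.28 without unmated replicate 1, and in neither case was the unadjusted p under 0.05. After cyclic loess the difference was 0.36 and the groups overlapped. Bmp2 is dim on these arrays.

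Gdf2, also called BMP9, is a circulating ligand made mainly by the liver that acts on endothelium through Acvrl1. It read 6.71, 6.97 and 7.05 on mated arrays, against 6.53, 6.66 and 6.66 on unmated arrays, all dim. The groups were 0.05 apart, with the other two mated arrays well above replicate 1. The difference was 0.29 (95% confidence interval 0.06 to 0.52, adjusted p = 0.984), and it ranged between 0.22 and 0.39 with 1 array left out. The unadjusted p was over 0.05 without mated replicate 2, without mated replicate 3 or without unmated replicate 1, and the groups overlapped after median centring. Its receptor Acvrl1 had a difference of -0.01. The endothelial markers had a mean between 6.90 and 7.10 on mated arrays and between 7.04 and 7.18 on unmated arrays, and their part in the result was not tested.

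Gdf10, a BMP3-like ligand whose gene is the neighbour of Gdf2, read 6.84, 7.21 and 6.84 on mated arrays, against 6.67, 6.76 and 6.82 on unmated arrays. A gap of 0.02 separated the groups, and mated replicate 2 alone stood well above the rest: the difference of 0.21 (95% confidence interval -0.04 to 0.47, adjusted p = 0.984) was 0.09 without it. Gdf6, a ligand of joint and eye development, read 7.19, 7.18 and 7.30 on mated arrays, against 7.16, 6.90 and 7.15 on unmated arrays. Here unmated replicate 2 alone was low, and the difference of 0.15 (95% confidence interval -0.06 to 0.36, adjusted p = 0.984) was 0.07 without it. Of the other BMP and GDF ligands, Gdf11, Bmp8a, Bmp5, Bmp10, Bmp3, Gdf3, Gdf15 and Bmp6 had differences between 0.01 and 0.19. Bmp15, Bmp7, Gdf9 and Bmp4 had differences between -0.14 and -0.02. Bmp3, Bmp5, Bmp10, Gdf3 and the oocyte ligands Gdf9 and Bmp15 were dim. Oocyte markers had a mean between 5.97 and 6.19 on mated arrays and between 6.05 and 6.29 on unmated arrays.

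Of the 3 TGF-beta ligands, which act on growth, matrix and immune cells, 1 was above 0. Tgfb1, the form most studied in immune tolerance, read 9.90, 9.89 and 9.70 on mated arrays, against 9.76, 9.61 and 9.70 on unmated arrays. The groups overlapped, and the difference was 0.14 (95% confidence interval -0.05 to 0.33, adjusted p = 0.984). Its unadjusted p was under 0.05 in 1 of 16 alternatives, without mated replicate 3. Tgfb2 and Tgfb3 had differences of -0.06 and -0.10. Every interval of these 3 ligands contained 0.

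The activin, inhibin and anti-Mullerian hormone genes were all on the higher side, 6 of 6, with a median of 0.17. A pair of beta subunits forms an activin, and a beta subunit with the alpha subunit Inha forms an inhibin, which blocks activin receptors. All 4 beta subunit genes were higher and 3 of them were free of overlap, with a median of 0.18. The share free of overlap was 8.47% over all genes and 9.93% over all dim genes, and 3 of these 4 genes are dim. The groups of Inhbb and Inhbe overlapped under each of the other 3 scalings, and those of Inhba after median centring. Inhbb, the beta B subunit and the only beta subunit above the receptor range, read 8.94, 9.04 and 9.16 on mated arrays, against 8.82, 8.93 and 8.86 on unmated arrays. The groups were 0.01 apart, and the difference was 0.18 (95% confidence interval -0.01 to 0.36, adjusted p = 0.984). Inhba, the beta A subunit of activin A, was dim and read 6.41, 6.62 and 6.50 on mated arrays, against 6.37, 6.22 and 6.40 on unmated arrays. Its groups were also 0.01 apart, and the difference was 0.18 (95% confidence interval -0.02 to 0.38, adjusted p = 0.984). Without mated replicate 1 the differences of Inhbb and Inhba were 0.23 each, with unadjusted p under 0.05, as in 9.67% of all genes there. Inhbb had 0.12 without mated replicate 3, and Inhba had 0.125 without mated or without unmated replicate 2, with unadjusted p over 0.05. The unadjusted p was under 0.05 in 4 of 16 alternatives for Inhbb and in 2 of 14 for Inhba.

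Inhbe and Inhbc, which lie next to each other on chromosome 7 and are known mainly from liver, were dim too. Inhbe read 6.75, 6.78 and 6.80 on mated arrays, against 6.50, 6.72 and 6.53 on unmated arrays. Mated values were close together, unmated replicate 2 came within 0.03 of them, and the difference was 0.19 (95% confidence interval 0.01 to 0.38, adjusted p = 0.984). Inhbe had an unadjusted p under 0.05 in 5 of 14 alternatives, so its place among the 6 genes depended on the processing. Inhbc had a difference of 0.08 and its groups overlapped. Inha and Amh, hormones of granulosa cells, had differences of 0.13 and 0.17 with overlapping groups. Granulosa cell markers had a mean between 5.78 and 5.98 on mated arrays and between 5.68 and 5.94 on unmated arrays, below the receptor limit.

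Around the ligands, the secreted traps and the matrix proteins went different ways. Of 5 traps, 4 were above 0, with a median of 0.05. Grem1, which binds BMP2 and BMP4, was dim and read 5.96, 6.42 and 6.28 on mated arrays, against 5.94, 6.15 and 6.10 on unmated arrays. Its groups overlapped, and the difference of 0.16 (95% confidence interval -0.13 to 0.44, adjusted p = 0.984) was 0.06 without mated replicate 2, 0.10 without unmated replicate 1 and 0.29 without mated replicate 1, where the unadjusted p was under 0.05. Noggin (Nog), follistatin-like 3 (Fstl3) and chordin (Chrd) had differences of 0.13, 0.05 and 0.01, and follistatin (Fst), the trap of activins, had -0.01.

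The latent TGF-beta binding proteins, some of which tie TGF-beta to the matrix, and the protease Bmp1, which cuts chordin and procollagen, were below 0 in 5 of 5, with a median of -0.09. Ltbp4, needed for elastic fibres, read 10.89, 11.16 and 11.21 on mated arrays, against 11.48, 11.37 and 11.22 on unmated arrays. Mated replicate 1 was the lowest, and the highest mated value was 0.01 below the lowest unmated one. The difference was -0.27 (95% confidence interval -0.52 to -0.02, adjusted p = 0.984), a signal 0.829 times that of unmated animals. It was -0.17 without mated replicate 1, and it was no longer at an unadjusted p under 0.05 without mated replicate 1, without unmated replicate 1, without unmated replicate 2 or after median centring, where the groups also overlapped. Ltbp1, Ltbp2 and Ltbp3 had differences of -0.08, -0.09 and -0.09 with overlapping groups.

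Bmp1 read 8.33, 8.36 and 8.32 on mated arrays, against 8.49, 8.38 and 8.39 on unmated arrays. A gap of 0.02 separated the groups, unmated replicate 1 was the highest, and the difference was -0.08 (95% confidence interval -0.24 to 0.07, adjusted p = 0.984), or -0.05 without that array. Fibroblast markers (Col1a1, Col1a2, Col3a1, Pdgfra, Dcn and Lum) were below 0 in 6 of 6, with a median of -0.07. Their mean was between 7.56 and 7.71 on mated arrays and between 7.52 and 7.97 on unmated arrays. The part of fibroblasts in the values of Ltbp4 and Bmp1 was not tested.

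**Figure D2:**
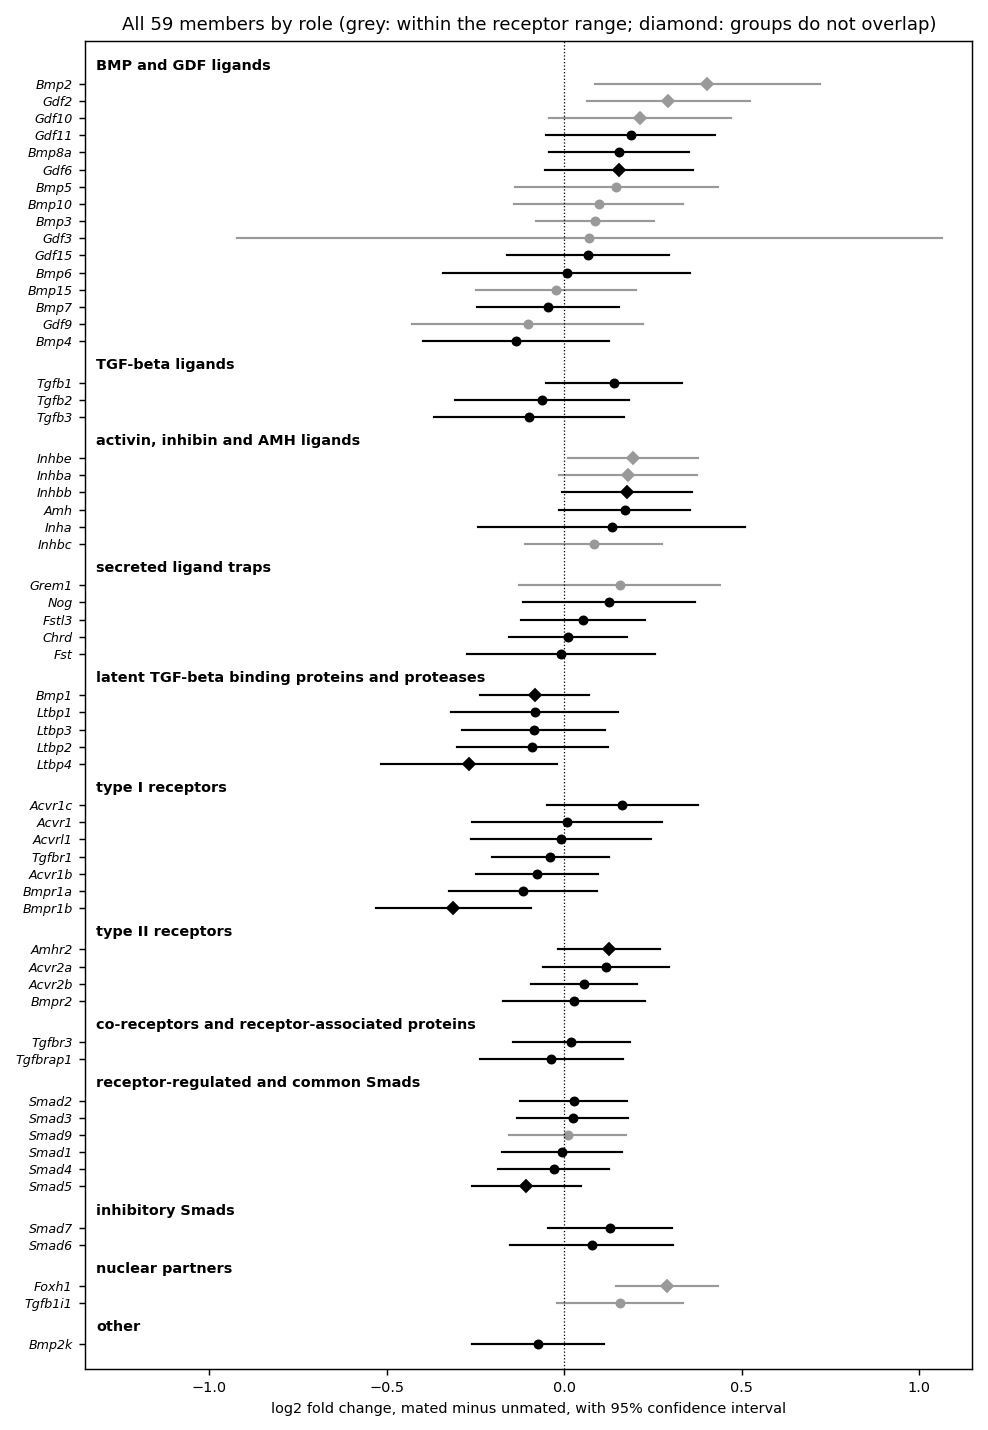
Log2 difference, mated minus unmated, of all 59 genes by role, with points or diamonds for the estimate (n = 3 each) and bars for the 95% confidence interval, grey for dim genes and diamonds for groups that did not overlap. Ligands lie mostly right of 0 (19 of 25), the latent TGF-beta binding proteins and Bmp1 left of it (5 of 5), and the 6 Smads between are split 3 and 3.

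The receptors were split: of 11 type I and type II receptors, 6 were above 0 and 5 below, with a median of 0.01, and all 11 were above the receptor range. Bmpr1b, a type I BMP receptor whose alleles in sheep alter ovulation rate, read 11.04, 11.05 and 11.14 on mated arrays, against 11.45, 11.52 and 11.20 on unmated arrays. All mated arrays were below all unmated arrays by at least 0.06, and unmated replicate 3 came nearest. The difference was -0.31 (95% confidence interval -0.53 to -0.09, adjusted p = 0.984), a signal 0.805 times that of unmated animals. Its unadjusted p was under 0.05 in 16 of 16 alternatives, and with 1 array left out the difference ranged between -0.41 and -0.25. Epithelial markers had a mean between 12.61 and 12.77 on mated arrays and between 12.56 and 12.75 on unmated arrays, and ciliated cell markers between 9.82 and 10.07 on mated and between 9.88 and 10.04 on unmated arrays. Their part in the value of Bmpr1b was not tested.

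The other type I receptors had intervals that contained 0. Bmpr1a, the closest relative of Bmpr1b, had a difference of -0.12, Acvr1b, the main activin type I receptor, -0.08, and Tgfbr1, that of TGF-beta, -0.04. Acvr1 had 0.01 and Acvr1c, a receptor of nodal and of activin B, 0.16. The type II receptors were above 0 in 4 of 4, with a median of 0.09. Amhr2, the receptor of anti-Mullerian hormone, which makes the embryonic precursor of the oviduct regress in males, read 7.48, 7.50 and 7.47 on mated arrays, against 7.33, 7.36 and 7.38 on unmated arrays. The values of each group were close together and 0.09 apart between groups, and the difference was 0.13 (95% confidence interval -0.02 to 0.27, adjusted p = 0.984). Acvr2a, Acvr2b and Bmpr2 had differences of 0.12, 0.06 and 0.03.

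The proteins around the receptors had smaller differences. Tgfbr3, or betaglycan, which presents TGF-beta and inhibin to their receptors, had a difference of 0.02. Tgfbrap1, which binds TGF-beta receptors and Smad4, read 8.12, 8.22 and 8.26 on mated arrays, against 8.24, 8.37 and 8.10 on unmated arrays. The groups overlapped, and its difference of -0.04 (95% confidence interval -0.24 to 0.17, adjusted p = 0.987) was above 0 without mated replicate 1 or without unmated replicate 2. Bmp2k, the kinase outside the pathway, read 10.29, 10.11 and 10.14 on mated arrays, against 10.17, 10.34 and 10.25 on unmated arrays, with a difference of -0.07 (95% confidence interval -0.26 to 0.11, adjusted p = 0.984). That difference depended on single arrays: it was -0.13 with mated replicate 1 left out and -0.12 with unmated replicate 1 left out, but -0.04 and -0.03 where mated or unmated replicate 2 was left out.

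Inside the cell, the 6 receptor-regulated and common Smads had a median of 0.00. Smad5, which carries BMP signals, read 10.63, 10.63 and 10.56 on mated arrays, against 10.71, 10.76 and 10.67 on unmated arrays. The groups were 0.04 apart, and the difference was -0.11 (95% confidence interval -0.26 to 0.05, adjusted p = 0.984). Smad2, Smad3, Smad9, Smad1 and the shared partner Smad4 had differences between -0.03 and 0.03. These 5 differences were smaller than the median interval half-width of 0.20 over the 59 genes.

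The inhibitory Smads were both above 0. Smad7, a target of the pathway that brings ubiquitin ligases to its receptors, read 7.63, 7.48 and 7.66 on mated arrays, against 7.46, 7.51 and 7.41 on unmated arrays. Mated replicate 2 lay among the unmated values, and the difference was 0.13 (95% confidence interval -0.04 to 0.30, adjusted p = 0.984). Without that array the unadjusted p was under 0.05, the only case in 15 alternatives. The difference was 0.095 without mated replicate 3 and 0.09 after a second quantile normalization. Smad6, which acts mainly on the BMP branch, had a difference of 0.08.

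Foxh1, the forkhead factor that brings activated Smad2 and Smad3 to genes of the nodal and activin branch, had the smallest p of the 59 genes. It read 7.16, 7.15 and 7.20 on mated arrays, against 6.87, 6.89 and 6.88 on unmated arrays. The values of each group lay within 0.05 of each other, and the groups were 0.26 apart. The difference was 0.29 (95% confidence interval 0.15 to 0.43, adjusted p = 0.984), a signal 1.22 times that of unmated animals. Its unadjusted p was under 0.05 in 15 of 15 alternatives, and with 1 array left out the difference ranged between 0.28 and 0.30. Its mean over the arrays was 7.03, within the range of the receptor genes. Tgfb1i1, or Hic-5, a focal adhesion protein that also acts with nuclear receptors and Smads, was dim too and had a difference of 0.16.

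The dim and the brighter genes of the pathway were also counted apart. Of the 16 dim genes 14 were above 0, with a median of 0.15, beside 62.9% of all 4198 dim genes above 0, with a median of 0.04. Of the 43 brighter genes 23 were above 0, with a median of 0.01, beside 49.4% of all 10308 brighter genes. The values of all genes thus moved with signal in the same direction as those of the pathway. After cyclic loess, which removes a trend of difference with signal, the median of the dim genes of the pathway was 0.12 and that of all dim genes was 0.00. Of the 12 ligands among the dim genes, Bmp2, Gdf2, Gdf10, Inhbe and Inhba were free of overlap in the deposited values, as were 9.93% of all dim genes. The groups of Gdf10 and Inhbe overlapped under every other scaling. Those of Bmp2 overlapped after cyclic loess, and those of Gdf2 and Inhba after median centring. The part of signal in these values was not tested beyond this.

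**Figure D3:**
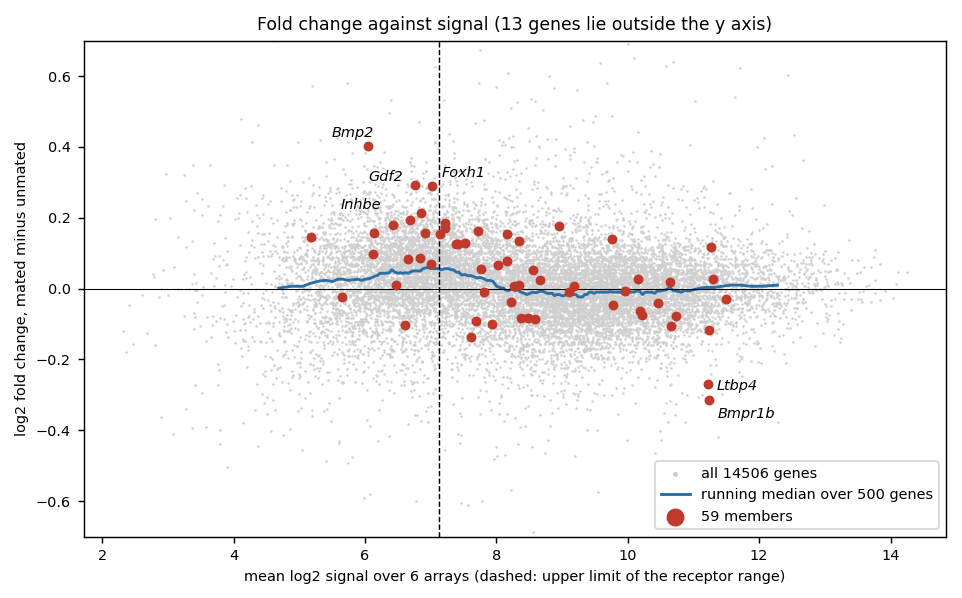
Log2 difference, mated minus unmated, against the mean log2 signal over the 6 arrays, with grey points for all 14506 genes, red points for the 59 genes of the pathway, a blue running median and a dashed line at the upper limit of the receptor range. Bmp2, Gdf2, Foxh1 and Inhbe lie left of the line and above 0, and Ltbp4 and Bmpr1b lie far right of it and below 0.

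**Figure D4:**
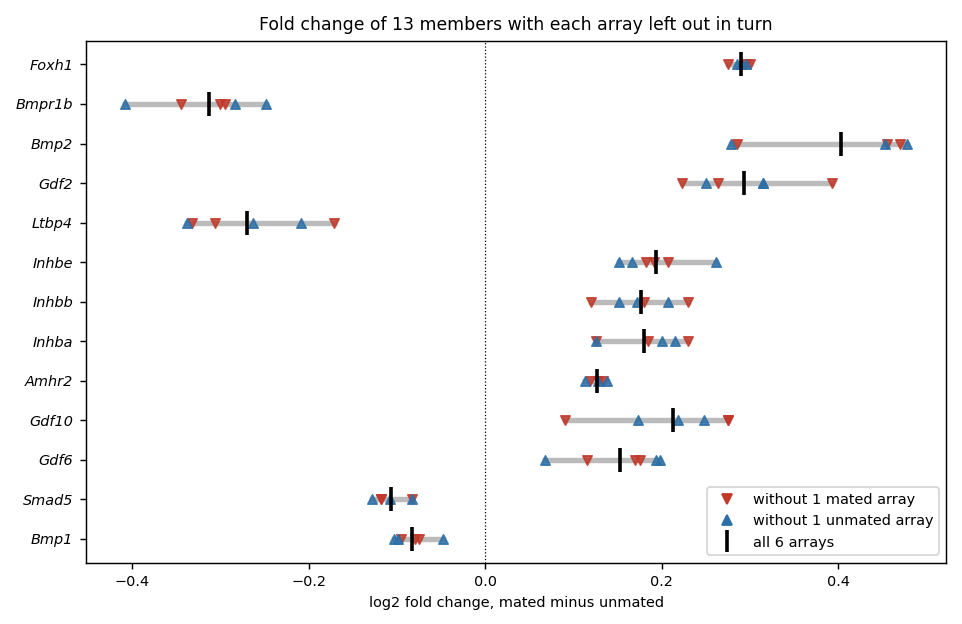
Log2 difference, mated minus unmated, of the 13 genes whose groups did not overlap, as a black tick for all 6 arrays and triangles with 1 mated or 1 unmated array left out. All triangles stay on the side of 0 of their tick, and the nearest to 0 are Bmp1 without unmated replicate 1, at -0.05, and Gdf6 without unmated replicate 2, at 0.07.

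Genes that the pathway is known to act on were read from a list of 20, of which 18 were measured. At an unadjusted p under 0.05 there were 2, both higher, or 11.1% of the 18, beside 4.57% of all genes. Cdkn2b, a cell cycle inhibitor that TGF-beta induces in epithelial cells, read 8.93, 8.99 and 8.95 on mated arrays, against 8.69, 8.73 and 8.88 on unmated arrays. The groups were 0.05 apart, and the difference was 0.19 (95% confidence interval 0.02 to 0.36, adjusted p = 0.984). Msx2, a homeobox gene that BMPs induce, was dim and read 6.19, 6.15 and 6.40 on mated arrays, against 5.93, 6.08 and 6.05 on unmated arrays. Its groups did not overlap either, and the difference was 0.23 (95% confidence interval 0.02 to 0.43, adjusted p = 0.984). The share free of overlap was 11.1% of the 18, beside 8.47% of all genes and 9.93% of all dim genes.

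The list as a whole was split, with 7 of 18 genes above 0, 11 below and a median of -0.02. Id1, the BMP target most used as a readout, was chosen for description after its values were seen. It read 8.68, 8.55 and 8.44 on mated arrays, against 8.77, 9.06 and 8.64 on unmated arrays, with overlapping groups and a difference of -0.27 (95% confidence interval -0.54 to 0.01, adjusted p = 0.984). Its relatives Id2, Id3 and Id4 had differences of 0.03, -0.04 and -0.17. Ccn2, or connective tissue growth factor, also chosen after its values were seen, read 9.20, 8.96 and 9.76 on mated arrays, against 9.11, 8.52 and 9.19 on unmated arrays. It varied more between animals than the other target genes, and its difference of 0.37 had an interval between -0.17 and 0.90.

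**Figure D5:**
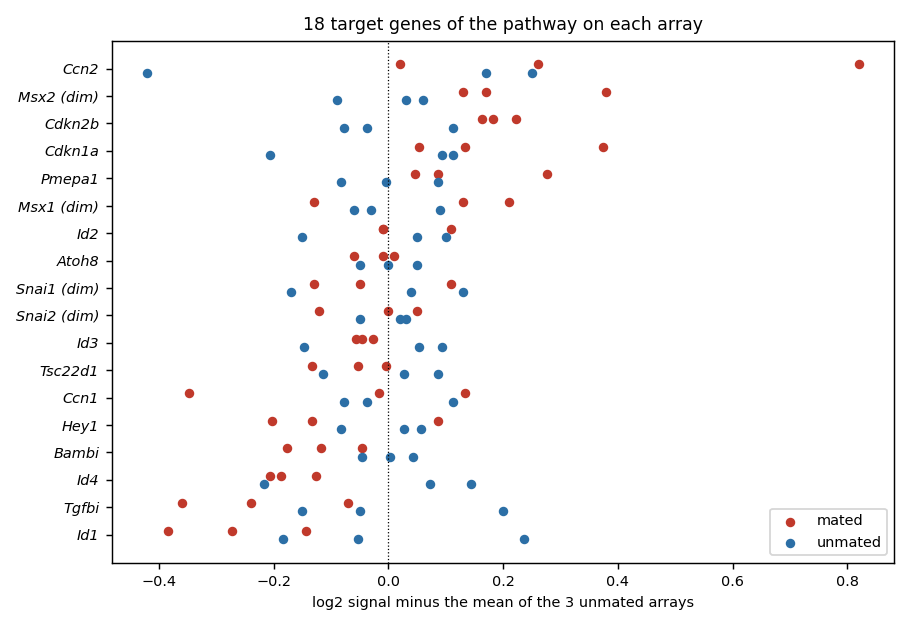
Log2 signal of the 18 measured target genes on each array, with red points for mated and blue points for unmated animals, as the difference from the mean of the 3 unmated arrays of the same gene. Mated points of Cdkn2b and Msx2 lie right of the unmated ones, and for the other 16 genes the groups overlap. Groups free of overlap make up 11.1% of the 18, beside 8.47% of all genes.

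The remaining lists of pathway genes held no gene at an unadjusted p under 0.05. Of 13 measured extracellular regulators 6 were above 0, with a median of -0.01. The smallest p was that of Sostdc1, a secreted BMP and Wnt antagonist, which was dim and read 7.01, 7.26 and 7.29 on mated arrays, against 6.79, 6.75 and 7.26 on unmated arrays. Unmated replicate 3 lay with the mated arrays, and the difference was 0.25 (95% confidence interval -0.08 to 0.59, adjusted p = 0.984). Of 14 genes of TGF-beta activation and of co-receptors 8 were above 0, with a median of 0.03. Emilin1, a matrix protein that limits the maturation of TGF-beta, read 8.12, 8.13 and 8.03 on mated arrays, against 7.99, 7.98 and 7.89 on unmated arrays. Its groups were free of overlap, with a difference of 0.14 (95% confidence interval -0.02 to 0.30, adjusted p = 0.984). Of 22 intracellular modulators 12 were above 0, with a median of 0.01. Tab1, an adaptor of the kinase TAK1 in the arm without Smads, read 8.94, 8.93 and 8.83 on mated arrays, against 9.0, 9.11 and 9.03 on unmated arrays, all above the mated ones. Its difference was -0.15 (95% confidence interval -0.31 to 0.02, adjusted p = 0.984). Its relative Tab2, which also serves TAK1, was free of overlap on the other side, with a difference of 0.10 and a gap of 0.02. Among the extracellular regulators Sost, or sclerostin, was free of overlap too, with a difference of 0.05 and a gap of 0.01. Groups were free of overlap in 7.69% of the extracellular regulators, 7.14% of the activation and co-receptor genes and 9.09% of the modulators. The share over all genes was 8.47%, near that of each list. Tab2 and Sost were chosen after their values were seen.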

How the data were processed

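Per the labels, 0.3 µg of total RNA per animal was converted to a biotin-labelled sense target and hybridised to Affymetrix whole-transcript arrays. The submitters' processing notes name RMA and Affymetrix Expression Console, with no versions. The table the authors deposited gives a log2 signal for every probe set on every array, and no further scaling was applied to it. RMA gives all arrays a similar distribution and compresses differences of dim probe sets. The build and annotation behind the probe sets are not given in the sources used here. Arrays have no depth, and their number limits the precision. The labels number the animals as biological replicates and give no batch or scan date.

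Of 29214 probe sets, 15310 had 1 gene symbol, 323 several and 13581 none. Probe sets with 1 symbol were kept, of which 15279 were found by Entrez identifier in the RefSeq table of GRCr8, with 0 symbols that needed an update. The probe set with the highest mean was kept per gene, which left 14506 genes. Mated and unmated animals were compared over all 6 arrays with limma 3.58.1 in R 4.3.3 (lmFit and eBayes, two-sided, Benjamini-Hochberg adjustment over all genes, threshold 0.05). The fit was tested on simulated data. The genes described and the lists (82 pathway genes, 67 of them measured, and 65 cell type markers, 54 of them measured) were chosen with earlier results of these data known, so their counts are not independent evidence. Values on every array are given for genes with an unadjusted p under 0.05, groups free of overlap or an absolute difference of at least 0.3. Where a role had none of these, they are given for the gene of smallest p, and in the pathway lists for genes with an unadjusted p under 0.05 and the gene of smallest p. A total of 16 alternatives were run, of scaling, fit, filter, probe set choice and left-out arrays, of which cyclic loess was added after the data were seen.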

Additional observations from a re-analysis of the deposited data

How the results depend on the processing

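The number of genes of the pathway past the adjusted threshold was 0 in the reported fit and in all 16 alternatives. The lowest adjusted p over all genes was 0.104, without mated replicate 1. The count at an unadjusted p under 0.05 was 6 in the reported fit and 11 where arrays were weighted (18.6%, beside 8.32% of all genes). It was 3 where the dimmest 50% of genes were dropped (13.6%, beside 3.61%), and 2 of these 3 were among the 6. With each array left out in turn it was between 2 (without unmated replicate 1, 3.39%, beside 4.42%) and 10 (without mated replicate 1, 16.9%, beside 9.67%). Of those 10, 3 were among the 6. The count free of overlap was 13 in the reported fit and 7 after median centring (11.9%, beside 8.18% of all genes). Of the 13, only Amhr2, Bmp2, Bmpr1b, Foxh1 and Smad5 were among these 7. It was 8 with the dimmest 25% left out (17.8%, beside 8.03%) and 4 with the dimmest 50% left out (18.2%, beside 7.14%). With each array left out the count was between 14 and 23, as fewer values have to be free of overlap. The dimmest 50% filter leaves 22 of the 59 genes, of which 9 were above 0, against 37 of 59 without a filter. The median difference of 0.03 was 0.01 and -0.02 under these filters, and between 0.03 and 0.0533 with each array left out. Tgfbrap1, at -0.04 with all arrays, ranged between -0.10 and 0.03 with each array left out, and the cause was not tested. The other 17 of the 18 genes among the 59 for which alternatives were computed kept their direction in all alternatives in which they were tested. The genes counted, without correction, in each of those alternatives were Foxh1 and Bmpr1b. Same-numbered animals had correlations of 0.00, -0.08 and 0.07 between their deviations from the group means, so the numbers were not taken as pairs. With the numbers as a replicate block, 4 genes were at an unadjusted p under 0.05, and Ltbp4 was not among them. Using the mean of all probe sets of a gene changed no value here, since each of the 59 genes has 1. The limits are 3 arrays per group, no known batch, 16 dim genes whose signal lies within the range of receptor genes, and a median interval half-width of 0.20. Genes of the pathway and marker lists, and Gdf3, Inha and Acvrl1, were read from the reported fit alone.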

Other observations

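Some genes of the pathway differed more between animals of a group than between the groups. Gdf3, a ligand known from the early embryo and from fat tissue, read 7.25, 7.58 and 6.28 on mated arrays, against 6.70, 7.86 and 6.34 on unmated arrays. Its SDs of 0.68 in mated and 0.79 in unmated animals were the highest of the 59 genes, whose median SDs were 0.10 and 0.09. The highest values belonged to replicate 2 of either group and the lowest to replicate 3 of mated and of unmated animals, although nothing in the labels pairs these numbers. Inha, the alpha subunit of inhibin, read 8.30, 8.48 and 8.46 on mated arrays, against 8.62, 7.91 and 8.31 on unmated arrays, with unmated replicate 2 below the rest. Both genes were chosen after their values were seen.

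Of the 5 endothelial markers, 2 were above 0 and 3 below. Tek and Emcn, both dim, had differences of -0.29 and -0.22, at an unadjusted p under 0.05 and an adjusted p of 0.984, while Kdr had -0.12, Cdh5 0.05 and Pecam1 0.01. The share under 0.05 was 4.57% over all genes and 7.15% over all dim genes. In the other marker lists Spag6 (ciliated cells), Msx2 (secretory cells, also a target gene above) and S100a8 (neutrophils) were under 0.05, all dim and higher in mated animals. Spag6 was the only ciliated cell marker above 0: of 6, 1 was above and 5 below, with a median of -0.09. Secretory cell markers were above 0 in 3 of 4, and neutrophil markers in 5 of 6. Among genes of BMP signalling in endothelium, Acvrl1 read 8.92, 9.30 and 9.09 on mated arrays, against 9.04, 9.25 and 9.05 on unmated arrays, with overlapping groups. Bambi, a decoy receptor that BMP and TGF-beta induce, had a difference of -0.11, and Tgfbi, a matrix protein that TGF-beta induces, had -0.22, both with overlapping groups and chosen after their values were seen.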
